A study of Mus musculus with 6 samples.

Results

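The endogenous opioid genes of the mouse were followed in lumbar spinal cord through the RNA of 4 receptors (Oprm1, Oprd1, Oprk1 and Oprl1) and 4 peptide precursors (Penk, Pdyn, Pomc and Pnoc). These 8 genes were taken by symbol from a table of 52513 genes, with no filter on expression, and all 8 were above 0 in all 6 libraries. The libraries came from total RNA of cord segments L4 and L5 of wild-type mice. Of the 6, 3 were from mice given saline intrathecally and 3 from mice given morphine by the same route (10 µg in 10 µL), each for 7 days. Libraries are numbered as in their titles. Their descriptions each carry a run of several numbers, and it is not stated whether these are pooled animals; sex, age and strain are likewise unstated. Because separate animals are not stated, p-values measure the spread between these libraries, which may be in part technical. Values are FPKM, which divide a gene's fragments by its transcript length and by the library's depth.

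The receptors are coupled to inhibitory G proteins, and in the dorsal horn their activation lowers transmitter release from afferent terminals and hyperpolarises second-order neurons. Oprm1 encodes the mu receptor, at which morphine acts, Oprd1 the delta receptor, Oprk1 the kappa receptor and Oprl1 the nociceptin receptor. Their ligands are cut from larger precursors at pairs of basic residues: Penk gives enkephalins, Pdyn dynorphins and Leu-enkephalin, Pomc beta-endorphin, and Pnoc nociceptin. Dorsal horn interneurons are a well-known source of enkephalin, dynorphin and nociceptin.

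The repeated units that carry the opioid activity can be read in the coding sequences (GENCODE M21 on mm10), and they are shown because each copy of a precursor RNA encodes a different number of peptides. The units were found as in-frame codons of Met-enkephalin, of Leu-enkephalin or of the first residues of nociceptin. The capitals mark the unit, and the lower case shows the 2 codons on either side, 5′ to 3′ on the coding strand.
Penk codon 100 (Met-enkephalin): aagaagTACGGAGGCTTCATGaaacgg
Penk codon 107 (Met-enkephalin): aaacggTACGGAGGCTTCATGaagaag
Penk codon 136 (Met-enkephalin): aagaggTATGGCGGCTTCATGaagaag
Penk codon 187 (Met-enkephalin): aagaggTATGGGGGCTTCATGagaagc
Penk codon 211 (Met-enkephalin): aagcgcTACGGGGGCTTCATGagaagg
Penk codon 231 (Leu-enkephalin): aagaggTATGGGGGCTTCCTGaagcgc
Penk codon 262 (Met-enkephalin): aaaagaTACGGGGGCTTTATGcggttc
Pdyn codon 166 (Leu-enkephalin): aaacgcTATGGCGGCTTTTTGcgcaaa
Pdyn codon 202 (Leu-enkephalin): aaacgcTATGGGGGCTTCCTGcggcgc
Pdyn codon 221 (Leu-enkephalin): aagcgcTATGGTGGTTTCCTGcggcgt
Pomc codon 205 (Met-enkephalin): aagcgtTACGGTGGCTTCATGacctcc
Pnoc codon 141 (nociceptin): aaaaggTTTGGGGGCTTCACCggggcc
Penk held 6 Met-enkephalin units and 1 Leu-enkephalin unit in a coding sequence of 804 nt, all in exon 2. Pdyn held 3 Leu-enkephalin units in exon 4, Pomc 1 Met-enkephalin unit, and Pnoc the start of nociceptin and neither enkephalin. All 12 printed units were preceded by a pair of basic codons, while a pair followed 8 of them. The 7 units of Penk came in 6 distinct spellings, and those of Pdyn in 3. Among 21614 genes whose longest coding sequence was searched, 10 (0.0463%) held an enkephalin unit.

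The 8 RNAs covered a wide range of abundance. Penk was the highest at 239 ± 44.0 FPKM over the 6 libraries (SD, n = 6), above 98.6% of the genes detected in any library. Oprl1 followed at 33.2 ± 3.30, Pdyn at 16.5 ± 2.92, Pnoc at 15.2 ± 3.06, Oprk1 at 3.69 ± 0.516, Pomc at 1.94 ± 0.504, Oprd1 at 0.580 ± 0.282 and Oprm1 at 0.477 ± 0.201 FPKM. Except for Pdyn with Pnoc and Oprd1 with Oprm1, neighbours in this order did not overlap: the lowest value of the higher gene lay above the highest value of the lower one. Pdyn was above Pnoc in 6 of 6 libraries although their ranges overlapped, and Oprd1 was above Oprm1 in 5 of 6, with morphine 1 the exception. The nociceptin receptor was thus the most abundant opioid receptor RNA of these cords on a per-length scale, 8.01 to 11.3 times the kappa receptor in every library.

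**Figure D1:**
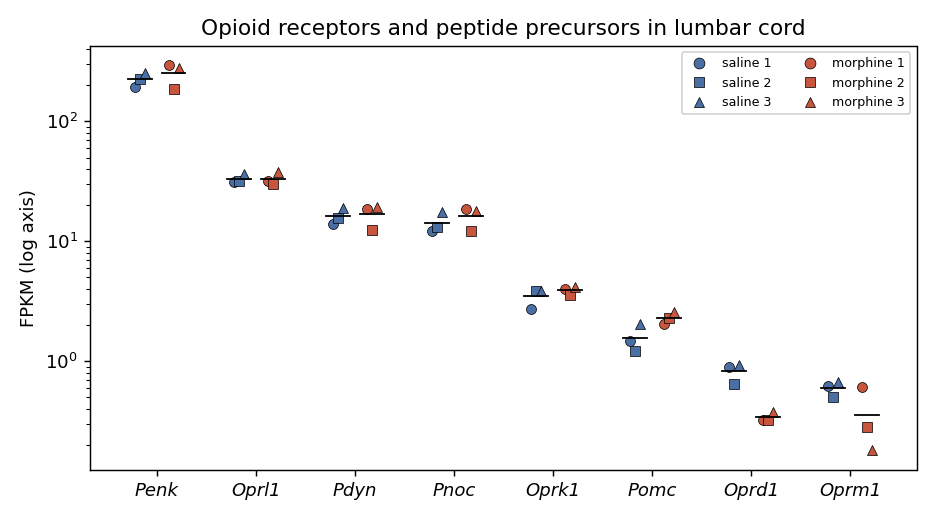
FPKM (log axis) of the 8 opioid genes in each of 3 saline and 3 morphine libraries, ordered by mean level; points are libraries and black bars are group means. Penk lies highest and Oprm1 lowest, and Oprd1 is the gene whose morphine points (0.32 to 0.38 FPKM) sit clearly below its saline points (0.64 to 0.92 FPKM).

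The libraries differed in their content of neuronal and oligodendrocyte RNA in a way that crossed the treatments. The summed level of 11 motor and cholinergic neuron markers was 260, 274 and 65.4 FPKM in saline 1, 2 and 3 and 113, 267 and 54.2 FPKM in morphine 1, 2 and 3. The mean log2(FPKM + 1) of 22 dorsal horn markers came to 4.86, 4.90 and 5.18 for saline 1, 2 and 3 and to 5.15, 4.74 and 5.22 for morphine 1, 2 and 3. The summed level of 6 oligodendrocyte markers was 19940, 21020 and 14320 FPKM in saline 1, 2 and 3 and 17930, 22430 and 16500 FPKM in morphine 1, 2 and 3. Saline 3, morphine 1 and morphine 3 were therefore lower in motor neuron and oligodendrocyte markers and higher in dorsal horn markers than the other 3 libraries. The estimated depth was 21.2 to 26.1 M fragments in saline and 17.8 to 19.9 M in morphine. In bulk tissue, fewer cells of a type and less RNA per cell cannot be told apart.

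The comparison of morphine with saline asks whether the cord's own opioid system differs after a course of morphine that the series title links to tolerance. In limma, with Benjamini-Hochberg adjustment over all 28021 genes above 0 in any library, 0 of the 8 opioid genes passed at an adjusted p under 0.05, against 0.0286% of all genes (8 genes; 0.00714% lower and 0.0214% higher). In a fit restricted to genes with at least 1 FPKM in 3 libraries, 0 of 6 opioid genes passed, against 1.51% of all genes (0.561% lower and 0.944% higher). Oprm1 and Oprd1 were below that filter. At an unadjusted p under 0.05 there was 1 of the 8, Oprd1, against 14.1% of all genes (6.88% lower and 7.26% higher). The groups did not overlap for 2 of the 8, Oprd1 being lower and Pomc higher after morphine, against 19.1% of all genes in either direction (28.7% of those passing the filter). Both shares were near the background.

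**Figure D2:**
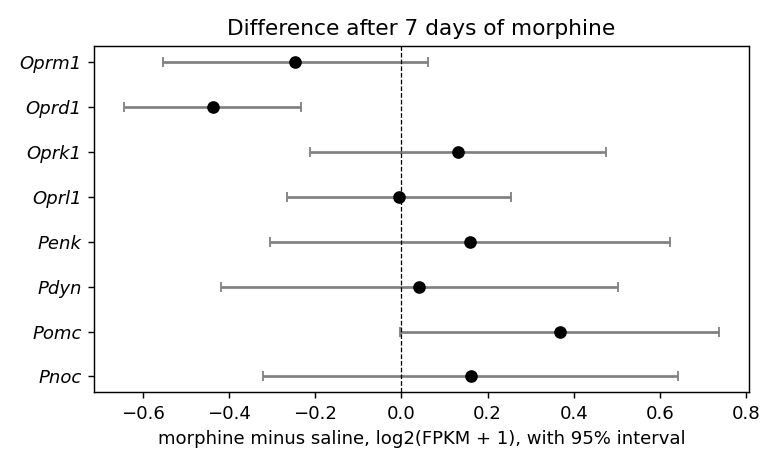
Difference between morphine and saline (3 libraries each) in log2(FPKM + 1) for the 8 opioid genes, with limma's 95% intervals before adjustment. The interval of Oprd1 (-0.64 to -0.23) lies below 0, that of Pomc reaches just below 0, and the other 6 span 0.

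Among the receptors, the delta receptor RNA stood lowest after morphine relative to saline. Oprd1 (ENSMUSG00000050511) lies on the minus strand of chromosome 4 (mm10, 132110726 to 132144486) and has 1 annotated transcript of 4021 nt with 3 exons. Saline 1, 2 and 3 held 0.90, 0.64 and 0.92 FPKM of Oprd1, and morphine 1, 2 and 3 held 0.32, 0.32 and 0.38 FPKM. All 3 morphine values lay below all 3 saline values, and the mean was 2.41-fold lower. On the log2(FPKM + 1) scale, which compresses changes of genes below 1 FPKM, the difference was -0.44, with an SE of 0.084 and a 95% interval of -0.64 to -0.23. The limma test across all genes gave an adjusted p of 0.114 (0.00193 unadjusted). With a pseudocount of 0.1 the same difference was -1.05 (limma adjusted p = 0.145). An exact permutation test on the FPKM (two-sided) gave p = 0.1, and no smaller p is possible with 3 libraries a group.

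With a single annotated transcript, the FPKM of Oprd1 translates into fragments with little doubt about length. It rested on about 73, 63 and 74 fragments in saline and 24, 22 and 27 in morphine. The 95% Poisson intervals ran from 48.4 to 92.9 fragments over the saline libraries and from 13.8 to 39.3 over the morphine libraries, and they cover counting error alone. As raw fragment numbers, the saline and morphine intervals did not meet. They are not scaled to depth, which was higher in saline (21.2 to 26.1 M fragments) than in morphine (17.8 to 19.9 M). The gap in fragments therefore holds the difference in depth as well. Oprd1 was lower after morphine under each of the 15 other settings that gave it a value, with differences from -1.05 to -0.39 and limma adjusted p from 0.0813 to 0.277. With the motor neuron list or the dorsal horn list as a covariate the difference was -0.46 and -0.45. Among genes with at least 1 FPKM in 3 libraries, a filter that Oprd1 did not pass, longer transcripts tended to lower values after morphine. There the median difference was -0.075 over 2081 genes whose longest transcript exceeds 4000 nt and is at most 5000 nt. Oprd1 was at -0.39 once the length trend was removed.

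Ratios of Oprd1 to the other receptors within a library, which carry over the gap in Oprd1 itself, differed by partner. Oprd1 to Oprk1 stood at 0.330, 0.165 and 0.237 with saline and at 0.0804, 0.0906 and 0.0911 with morphine, again without overlap (exact permutation p = 0.1, two-sided). Oprd1 to Oprl1 ran from 0.0200 to 0.0291 with saline and from 0.01002 to 0.0107 with morphine, also without overlap (exact permutation p = 0.1, two-sided). Oprd1 to Oprm1 was 1.45, 1.28 and 1.37 with saline and 0.525, 1.14 and 2.11 with morphine, where the groups overlapped (exact permutation p = 0.7, two-sided).

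**Figure D3:**
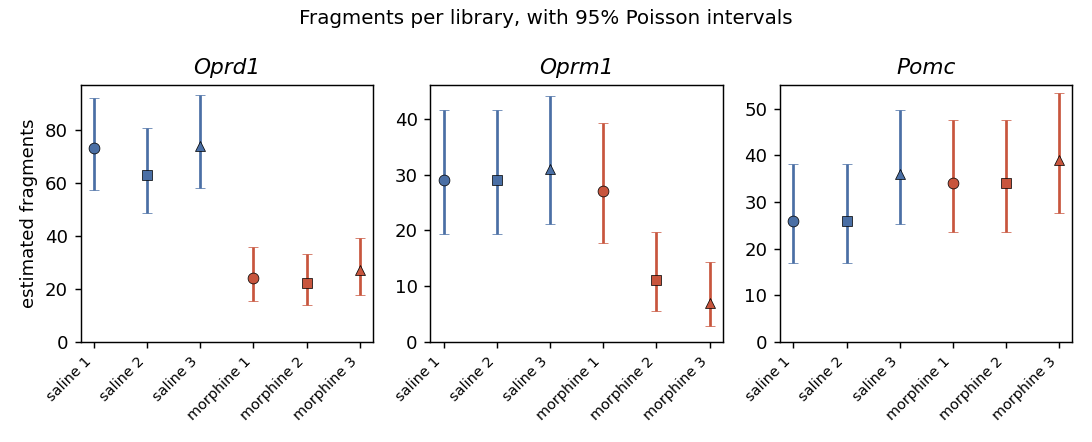
Estimated fragments behind Oprd1, Oprm1 and Pomc in each library (saline in blue, morphine in red), from FPKM, the estimated depth and the longest annotated transcript, with 95% Poisson intervals. The fragments are not scaled to depth, which was higher in the saline libraries. On this raw scale the Oprd1 groups are separate (63 to 74 against 22 to 27 fragments). Oprm1 is low in morphine 2 and 3 only, and the Pomc intervals overlap.

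Of the 8 genes, 5 had a promoter in the RefSeq table used (GRCm38.p6, 300 bases around each start), among them Oprd1 and Pomc, the pair whose groups did not overlap. The 250 bases upstream of their starts are printed for that reason, 5′ to 3′ on the gene's strand. The search covered the CRE TGACGTCA, the AP-1 site TGANTCA, the GC box GGGCGG and the TATA box TATAAA on both strands. Capitals mark every match, which for Oprd1 are GC boxes and for Pomc 1 GC box followed by 1 TATA box. The windows are chr4:132144487-132144736 on the minus strand and chr12:3954695-3954944 on the plus strand.
Oprd1: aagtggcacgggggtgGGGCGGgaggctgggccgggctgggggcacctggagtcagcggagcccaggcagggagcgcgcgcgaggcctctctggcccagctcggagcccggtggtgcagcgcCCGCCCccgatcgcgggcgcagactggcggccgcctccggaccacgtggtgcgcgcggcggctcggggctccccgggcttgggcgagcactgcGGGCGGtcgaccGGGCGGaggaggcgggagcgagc
Pomc: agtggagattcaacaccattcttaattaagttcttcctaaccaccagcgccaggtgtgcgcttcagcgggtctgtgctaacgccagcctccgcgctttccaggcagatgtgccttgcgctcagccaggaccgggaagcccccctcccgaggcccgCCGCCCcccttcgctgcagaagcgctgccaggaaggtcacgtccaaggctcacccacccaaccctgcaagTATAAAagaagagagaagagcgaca
Oprd1 held 4 GC boxes, at 234, 128, 35 and 23 bases before the start, and Pomc held 1 at 95. Such a box occurred in 35.7% of all 32851 promoters of the table. Oprd1 was 79.3% G or C over its 300 bases, above or equal to 98.8% of promoters, and the 59.0% of Pomc stood at the 68.9th percentile. Pomc also held a TATA box 25 bases before its start, on the gene's strand. A window of Oprl1 held the same letters on the opposite strand, 140 bases before its start (13.6% of promoters hold a match on either strand). The CRE, present in 1.79% of promoters, and the AP-1 site, present in 7.81%, had 0 matches in the windows of the 5 genes, which says only that these letters are not in these windows.

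Oprm1, the receptor of morphine itself, was detected near the floor of the assay. It lies on the plus strand of chromosome 10 (6758506 to 7038198), with 31 annotated transcripts of 242 to 2420 nt. The saline libraries held 0.62, 0.50 and 0.67 FPKM of Oprm1 and the morphine libraries 0.61, 0.28 and 0.18. Morphine 1 lay within the saline range, and morphine 2 and 3 lay below it. The difference was -0.25 (SE 0.13; limma adjusted p = 0.445; exact permutation p = 0.2, two-sided), and it was larger without morphine 1 (-0.38, limma adjusted p = 0.248) and smaller without morphine 3 (-0.15). If every fragment came from the longest transcript, morphine 3 held about 7 fragments (95% interval 2.8 to 14.4) and saline 3 about 31 (21.1 to 44.0). The mix of transcripts is not known, so these fragment numbers are uncertain. Oprm1 also shares 96 nt of exonic sequence with Ipcef1, a gene on the opposite strand at up to 4.55 FPKM, and the strand setting of the counts is not stated.

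Sensory neurons of the dorsal root ganglion also express Oprm1, so their markers are given beside it. Of 10 ganglion markers, 8 were below 1 FPKM in every library. Among the defining genes, the sodium channel Scn10a was at 0.02 FPKM or less, the receptor Mrgprd at 0.08 or less and Prdm12 at 0.04 or less. The ion channel P2rx3 was lower in every morphine library (0.63, 0.31 and 0.54 FPKM) than in any saline library (0.67, 0.75 and 0.82 FPKM; limma adjusted p = 0.379). The exceptions to the low levels were Sncg and the transcription factor Pou4f1, whose mean was 5.95 FPKM in saline and 7.37 in morphine. The summed level of the list, carried by Sncg, was 125, 119 and 57.8 FPKM in saline 1, 2 and 3 and 92.8, 156 and 67.5 in morphine 1, 2 and 3. It was lower in saline 3, morphine 1 and morphine 3, as the motor and cholinergic markers were. The part of sensory neurons in the Oprm1 values was not tested.

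The kappa and nociceptin receptors differed little between the groups. Oprk1 (chromosome 1, 5588466 to 5606131) gave 2.73, 3.88 and 3.88 FPKM with saline and 3.98, 3.53 and 4.17 with morphine, a difference of 0.13 (95% interval -0.21 to 0.47; limma adjusted p = 0.699). Saline 1 was the low value, and without it the difference was 0.0017. Oprl1 (chromosome 2, 181715016 to 181720985) gave 31.0, 32.1 and 36.7 FPKM with saline and 31.9, 29.8 and 37.9 with morphine, with overlapping groups and means of 33.3 and 33.2 FPKM. Its difference of -0.0058 had a 95% interval of -0.27 to 0.25, and Oprl1 had the smallest relative spread of the 8 genes over the 6 libraries (a coefficient of variation of 9.93%, against 48.6% for Oprd1).

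Penk, Pdyn and Pnoc were high and low in the same libraries, across both treatments. Penk (chromosome 4, 4133531 to 4138819) gave 193, 225 and 253 FPKM with saline and 295, 188 and 278 with morphine. Pdyn (chromosome 2, 129686565 to 129699844) gave 13.99, 15.6 and 18.8 FPKM with saline and 18.7, 12.4 and 19.4 with morphine. Pnoc (chromosome 14, 65400673 to 65425472) gave 12.2, 13.1 and 17.6 FPKM with saline and 18.5, 12.1 and 17.9 with morphine. Each of the 3 precursors was higher in saline 3, morphine 1 and morphine 3 than in the other 3 libraries. Those with the higher values are the libraries with more dorsal horn and less motor neuron and oligodendrocyte marker RNA. Morphine 2 held the lowest value of all 3.

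The proportions between these precursors were steadier than their levels. Penk to Pdyn ran from 13.5 to 15.8 over the 6 libraries (1.17-fold), Penk to Pnoc from 14.4 to 17.1 (1.19-fold) and Pnoc to Pdyn from 0.841 to 0.990 (1.18-fold). The level of Penk itself spanned 1.57-fold, that of Pdyn 1.57-fold and that of Pnoc 1.53-fold. The groups overlapped for all 3 ratios, with exact permutation p of 0.2, 0.8 and 0.2 (two-sided) in a design that cannot go below 0.1, so a difference between treatments is not shut out. For Penk to Pdyn the saline libraries gave 13.8, 14.4 and 13.5 and the morphine libraries 15.8, 15.2 and 14.3, and for Pnoc to Pdyn they gave 0.870, 0.841 and 0.936 against 0.990, 0.980 and 0.922. Between a precursor and the receptor of its main product the proportion was looser, with Pdyn to Oprk1 spanning 1.46-fold and Pnoc to Oprl1 1.48-fold.

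**Figure D4:**
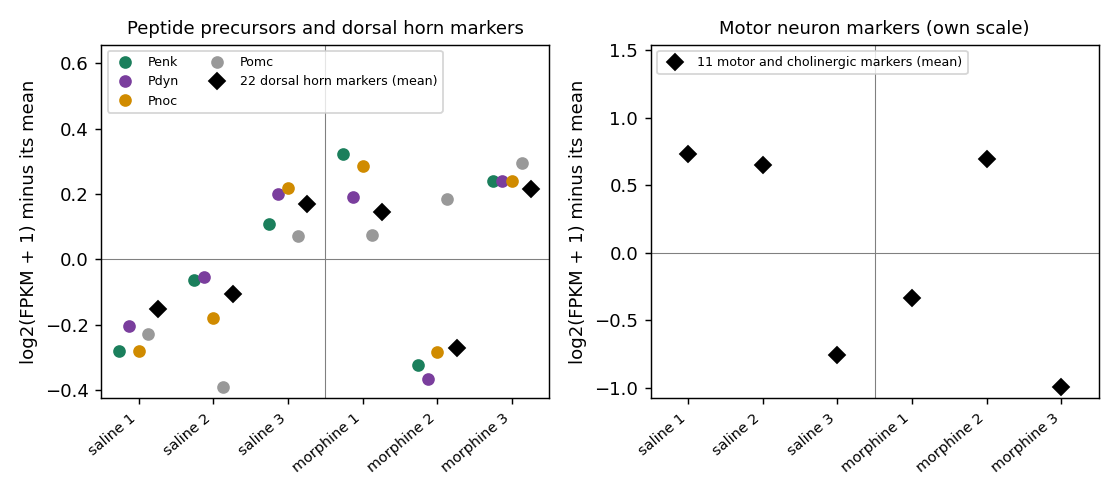
Level of 4 peptide precursors and mean level of 22 dorsal horn markers (left) and 11 motor and cholinergic markers (right) in each library, as log2(FPKM + 1) minus the mean over the 6 libraries. Penk, Pdyn, Pnoc and the dorsal horn markers lie above 0 in saline 3, morphine 1 and morphine 3 and below it elsewhere, the motor markers do the reverse, and Pomc lies below 0 in saline 1 and 2 only.

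Against this spread, the group differences of the 3 precursors were small. They were 0.16 for Penk (95% interval -0.31 to 0.62), 0.041 for Pdyn (-0.42 to 0.50) and 0.16 for Pnoc (-0.32 to 0.64), with limma adjusted p of 0.727, 0.938 and 0.732. With the motor neuron list as a covariate they were 0.041, -0.087 and 0.025 in the same order, and with the dorsal horn list 0.089, -0.031 and 0.086. Without morphine 2 they were 0.36, 0.24 and 0.34, with limma adjusted p of 0.263, 0.453 and 0.392, and without morphine 1 they were 0.037, -0.043 and 0.058, so single libraries moved each value by over 1.5 times with 0 calls. Penk shares 233 nt of exonic sequence with the antisense gene A830012C17Rik, which was at 0.54 FPKM or less.

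Pomc, the precursor of beta-endorphin and of melanocortins, departed from the other precursors in morphine 2, where they were at their lowest and Pomc was not. Like them, it was lower in saline 1 and 2 than in saline 3, morphine 1 and morphine 3. Its value in morphine 2 rested on about 34 fragments (95% Poisson interval 23.5 to 47.5). Pomc lies on the plus strand of chromosome 12 (3954951 to 3960642) and gave 1.47, 1.21 and 2.04 FPKM with saline and 2.05, 2.29 and 2.55 with morphine. The morphine values all lay above the saline values, though the lowest of them (2.05) lay close to saline 3 (2.04). The mean was 1.46-fold higher (difference 0.37, SE 0.15, limma p = 0.0512, adjusted p = 0.355; exact permutation p = 0.1, two-sided, the smallest possible here). Counted on the longest of its 5 transcripts, Pomc had 26 to 36 fragments per saline library and 34 to 39 per morphine library, and the Poisson intervals overlapped. These fragments are not scaled to depth, which was lower in the morphine libraries, so the gap is narrower on this raw scale. Among genes with at least 1 FPKM in 3 libraries, shorter transcripts tended to higher values after morphine, with a median of 0.096 over 2423 genes of 1000 to 2000 nt. The difference of Pomc (longest transcript 1043 nt) was 0.26 with the length trend removed.

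Pituitary tissue and leukocytes also express Pomc, so their markers are given beside it. Of 8 pituitary markers, 3 were at 0 in all libraries (Gh, Cga and Fshb), Prl reached 0.07 FPKM, and Tbx19, the pituitary activator of Pomc, 0.03. The exception was Tshb, with 0.74, 0.91 and 0.81 FPKM in the saline libraries and 1.28, 1.08 and 1.27 in the morphine libraries, without overlap (limma adjusted p = 0.243), which carried most of a summed level of 0.84 to 1.01 FPKM in saline and 1.20 to 1.45 in morphine. The 10 leukocyte markers summed to 3.42 to 5.78 FPKM in saline and 1.17 to 3.13 in morphine, with 1 to 5 of them at 0 in a library. S100a8 and S100a9 carried most of that sum. S100a8, a neutrophil protein, gave 1.76, 2.74 and 1.75 FPKM with saline and 0.37, 1.26 and 0.61 with morphine (limma adjusted p = 0.177). S100a9 had means of 2.27 FPKM with saline and 1.03 with morphine. The median difference of the list was 0.0048. Of the 10, 1 lay lower (S100a8) and 1 higher (Ms4a1) without overlap, against 19.1% of all genes in either direction. Ms4a1 gave 0.02, 0.01 and 0 FPKM with saline and 0.04, 0.05 and 0.09 with morphine. The part of these cells in the Pomc values was not tested.

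The machinery that makes and breaks the peptides was present in every library. Of 12 genes of peptide processing, 0 passed limma's test over all genes, which 0.0286% of all genes passed. At that share, 0 calls in a short list says little about its genes. The median difference of the 12 was -0.029, against -0.015 over the 14614 genes with 1 FPKM in 3 libraries. The 2 of 12 with an unadjusted p under 0.05, against 14.1% of all genes and 22.3% of those passing the filter, had higher means after morphine. They were Cpe, the carboxypeptidase that trims basic residues, at 777 ± 29.0 and 939 ± 51.1 FPKM (SD, n = 3 each; adjusted p = 0.161 by limma), and Pcsk1n, an inhibitor of the convertase Pcsk1, at 293 and 363 FPKM (adjusted p = 0.267). Of the convertases themselves, Pcsk1 had means of 7.44 and 6.89 FPKM and Pcsk2 of 35.2 and 32.5 FPKM, saline first. Of 10 peptidases that degrade opioid peptides, 0 passed, with a median of -0.12. Lnpep, a membrane aminopeptidase, had the smallest p (0.00137; limma adjusted p = 0.109) and gave 1.34, 1.16 and 1.52 FPKM with saline and 0.45, 0.70 and 0.52 with morphine, without overlap. Neprilysin (Mme) was at 2.67 and 2.32 FPKM and aminopeptidase N (Anpep) at 2.45 and 1.67 FPKM, both in overlapping groups. Of the 10, 3 lay lower without overlap, among them Lnpep, and 2 higher, Npepps and Enpep. Among all genes 19.1% did not overlap in either direction, and 28.7% of those passing the filter. Npepps had means of 56.1 FPKM with saline and 61.9 with morphine. Enpep gave 1.56, 1.49 and 1.45 FPKM with saline and 2.03, 2.18 and 1.58 with morphine.

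Downstream of the receptors, 0 of 19 G protein and RGS genes and 0 of 7 receptor kinases and arrestins passed limma's test over all genes. Of 16 effector channels and cyclases 0 passed, and 0.0286% of all genes did. An unadjusted p under 0.05 was found for 4, 0 and 3 genes of these lists, in the same order. The background for these counts was 14.1% of all genes and 22.3% of those passing the filter. Gnb2, a G protein beta subunit, averaged 205 ± 4.48 FPKM with saline and 248 ± 16.2 with morphine (SD, n = 3 each; adjusted p = 0.132 by limma), and Grk5, a receptor kinase, at 2.94 and 2.28 FPKM (adjusted p = 0.463). In the effector list 5 of 16 genes lay lower after morphine without overlap and 0 higher, against 10.0% and 9.08% of all genes (lower in 15.7% of those passing the filter). The largest difference there was that of Adcy9, an adenylyl cyclase, at 4.46 ± 0.514 and 1.89 ± 0.134 FPKM (difference -0.92, limma adjusted p = 0.0895; 0.0365 in the fit restricted to expressed genes). Kcnj3 and Kcnj9, subunits of the potassium channels that opioid receptors open, had saline means of 18.3 and 9.60 FPKM and morphine means of 17.1 and 8.22 FPKM.

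Genes that bind or modulate opioid signals gave 0 calls of 14, against 0.0286% of all genes. Wls, a sorting protein that binds the mu receptor, was at 19.9 ± 1.68 and 14.6 ± 1.82 FPKM (SD, n = 3 each; limma adjusted p = 0.155). Ackr3, a scavenger receptor of opioid peptides, was at 3.66 and 2.76 FPKM, and Cck, an anti-opioid peptide of the dorsal horn, at 153 and 171 FPKM. Of 13 transcription factors known to act on opioid genes, 0 passed over all genes, where 0.0286% did. Without overlap, 7 lay lower and 1 higher, against 10.0% and 9.08% of all genes (lower in 15.7% of those passing the filter). Fos, a part of the AP-1 factor, gave 23.8, 21.2 and 22.9 FPKM with saline and 10.2, 12.5 and 8.97 with morphine (limma adjusted p = 0.0804; 0.0361 in the restricted fit). Kcnip3, the calcium-sensitive repressor of Pdyn, was at 16.0 and 15.8 FPKM, and Rest, a repressor with a site in Oprm1, at 1.29 and 1.28 FPKM.

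The pattern of each opioid gene with at least 1 FPKM was set beside 12661 other expressed genes, by the root mean square difference of centred log2(FPKM + 1) values over the 6 libraries. Nearest to Penk were Mir124a-1hg (0.022) and Crabp1 (0.023), nearest to Pnoc were Celf4 (0.028) and Hpca (0.030), and nearest to Pdyn were Qtrt1 (0.034) and Syt6 (0.037). Celf4, for example, gave 82.6, 89.5 and 118 FPKM with saline and 127, 85.2 and 116 with morphine. For Oprl1 they were Elmod1 (0.018) and Clstn3 (0.023), for Oprk1 Frg1 (0.040) and Mrm2 (0.041), and for Pomc Spata33 (0.042) and Tmem238 (0.054). Penk and Pnoc were each other's nearest opioid gene (0.069), a distance that 21 of the other genes undercut for Penk and 35 for Pnoc. With 6 libraries and this many genes, close patterns are common, and the distances are a description.

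Other neurons of the dorsal horn give a frame for these values. Of 22 dorsal horn markers, 0 passed limma's test over all genes, where 0.0286% did, with a median of 0.075. In the restricted fit, where 1.51% of all genes passed, 1 did. This was Pvalb, a calcium-binding protein of interneurons and large afferents, with means of 100.2 ± 3.57 FPKM for saline and 125 ± 5.30 for morphine (SD, n = 3 each). Its limma adjusted p was 0.0992 over all genes and 0.0495 in the restricted fit. Sst, the somatostatin precursor, gave 354, 380 and 486 FPKM with saline and 502, 299 and 509 with morphine, high in the same 3 libraries as Penk. Calb2, a calcium-binding protein of excitatory interneurons, averaged 159 ± 3.75 FPKM with saline and 179.6 ± 2.40 with morphine (SD, n = 3 each; limma adjusted p = 0.138). At an unadjusted p under 0.05 there were 2 markers with higher means, Pvalb and Calb2, and 2 with lower means. The background was 14.1% of all genes and 22.3% of those passing the filter. The lower ones were Slc6a5, the glycine transporter of inhibitory neurons, with 57.8, 47.8 and 62.1 FPKM after saline and 33.6, 37.0 and 41.3 after morphine (limma adjusted p = 0.125), and Slc32a1, the vesicular transporter of GABA and glycine, with means of 91.0 and 77.6 FPKM (adjusted p = 0.305). The groups did not overlap for 2 higher (Pvalb and Calb2) and 2 lower markers (Slc6a5 and Maf) of the 22. Among all genes 19.1% did not overlap in either direction, and 28.7% of those passing the filter. These counts of markers do not stand above the background. Of the 11 motor and cholinergic markers 0 passed over all genes, against 0.0286% of all genes, and their median difference was -0.33. Chodl gave 31.4, 29.5 and 4.99 FPKM with saline and 8.89, 25.1 and 2.83 with morphine, in overlapping groups. The groups did not overlap for 1 of the 11, Lhx3, which was higher after morphine. It gave 0.47, 0.38 and 0.27 FPKM with saline and 0.69, 0.66 and 0.61 with morphine. Of the glial and meningeal lists (microglia, astrocytes, oligodendrocytes and fibroblasts) 0 of 26 genes passed, against the same 0.0286%. Among them the 8 fibroblast markers had a median of -0.51, with Igf2 at a mean of 49.2 FPKM after saline and 24.0 after morphine in overlapping groups. Ptgds, the most abundant of these 8, went the other way, with means of 792 FPKM after saline and 924 after morphine, also in overlapping groups.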

How the data were processed

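RNA-seq of mouse lumbar cord was used, with 3 saline and 3 morphine libraries grouped by their titles. The authors deposited FPKM values with 2 decimals. The submitters' processing notes name mm10 and the tools bcl2fastq (2.19.0), Trimmomatic, STAR and RSEM. The kit was a stranded one, per the labels' protocols. Other versions, the annotation release and the strand setting were not stated.

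Values were taken as log2(FPKM + 1) and the treatments were compared by limma (version 3.58.1, R 4.3.3) using an intensity trend. Its two-sided p-values were adjusted by Benjamini-Hochberg over 28021 genes above 0 FPKM in at least 1 library, and the threshold was 0.05. A restricted fit kept 14614 genes with at least 1 FPKM in 3 libraries. FPKM and ratios also had an exact permutation test over the 20 splits. Coordinates and lengths came from GENCODE M21 (mm10). Depth was estimated from the steps of low FPKM values in genes with 1 transcript, where 77.0% to 79.7% of values lay within 0.05 (or the rounding of the table, where wider) of a whole fragment number, against 12.7% to 16.9% for values spread evenly. The model and the depth estimate were tested on simulated data. Python 3.11.15, SciPy 1.17.1 and matplotlib 3.10.9 were used.

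The 8 genes and all lists were chosen with earlier results of these data known. Named genes are the 8, from each list up to 3 that passed or the 1 with the smallest p, for cell types also the 3 with the highest mean, and the 2 nearest patterns per gene. Named outside that rule, after their values were seen, were Pcsk1n, Pcsk1, Pcsk2, Mme, Anpep, Npepps, Enpep, Kcnj3, Kcnj9, Ackr3, Cck, Kcnip3, Rest, Scn10a, Mrgprd, Prdm12, Gh, Cga, Fshb, Prl, Tbx19, Ms4a1, Slc6a5, Slc32a1 and Maf, and Ipcef1 and A830012C17Rik as genes that overlap members. The other settings were pseudocounts of 0.1 and 0.5, TPM, quantile normalization, no trend, a replicate block, a marker list mean as a covariate, removal of the length trend and leaving out each library.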

Additional observations from a re-analysis of the deposited data

How the results depend on the processing

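None of the 8 opioid genes passed under any setting tried, which were other pseudocounts, scalings, filters, covariates and single libraries left out. Oprm1, Oprd1, Oprk1, Penk, Pomc and Pnoc kept the sign of their difference throughout. The difference of Oprl1, near 0, turned to 0.0096 with the length trend removed and ran from -0.10 to 0.066 with 1 library left out. That of Pdyn turned to -0.082 after rescaling to TPM, -0.087 with the motor neuron list and -0.031 with the dorsal horn list as a covariate, and ran from -0.069 to 0.24 with 1 library left out; the cause was not tested. Rescaling to TPM moved the median difference of the expressed genes from -0.015 to -0.13. The 8 calls among all genes became 220 in the restricted fit (fewer genes tested), 15 with a pseudocount of 0.1, 29 with TPM (9 higher and 20 lower, against 6 and 2), 3 and 4 with the motor neuron and dorsal horn covariates, 1 without the length trend, and 0 to 21 with 1 library left out. Whether libraries with the same number pair was not settled. Their deviations from the group mean correlated at -0.13, 0.16 and 0.29 across genes. Saline 1 and 2 both correlated best with morphine 2 (0.24 and 0.16), and saline 3 with morphine 3 (0.29). With the replicate block 0 genes passed. Depth limits Oprm1, Oprd1 and Pomc, which rest on about 7 to 31, 22 to 74 and 26 to 39 fragments per library.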
